A study of Arabidopsis thaliana with 12 samples.

Results

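CCS (AT1G12520) encodes the copper chaperone that delivers copper to the copper/zinc superoxide dismutases of Arabidopsis thaliana. Its transcript was measured here by 1 probe, number 347, which the platform's probe table assigns to CCS alone, out of 3439 probes on the array. No other probe of that table lists CCS, not even beside other genes. The gene symbol and locus were matched to the RefSeq annotation of assembly TAIR10.1. No source used here gives the array's genome build, so no coordinates are stated.

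The study set plants of the pete2 mutant against wild type (WT), 6 samples of total RNA from each. Both groups were ecotype Columbia 0 and were grown on soil, and pete2 lacks an isoform of plastocyanin. The labels used here name no tissue, plant age, mutant allele or treatment, and they do not say whether the samples of a group came from separate plants. The p-values therefore rest on the variation among these samples alone, part or all of which may be technical.

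Plastocyanin is the copper protein of the thylakoid lumen that carries electrons from the cytochrome b6f complex to photosystem I, and in leaves it is a main user of copper. The other large users in the chloroplast and cytosol are the copper/zinc superoxide dismutases CSD2 and CSD1, to which CCS delivers copper. When copper is short in Arabidopsis, the transcription factor SPL7 raises the microRNA miR398, whose targets include the CSD1, CSD2 and CCS transcripts, so that copper is spared for plastocyanin. The values below compare the CCS transcript between samples labelled WT and samples labelled pete2.

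The array values were single linear intensities per probe, and no source used here tells how they were scaled. The share of probes listed at exactly 0 was 15.7% to 17.8% in the WT samples and 17.1% to 30.7% in the pete2 samples. The sample medians of deposited intensity were 0.129 to 0.193 for WT and 0.0543 to 0.183 for pete2. In pete2 samples 1 and 2 both measures lay in the WT range, while samples 3 to 6 had more zeros and lower medians than any WT sample. CCS was above 0 in all 12 samples.

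As deposited, the CCS intensity was low on the linear scale of the array and changed little from sample to sample. The values in WT were 0.172, 0.164, 0.186, 0.192, 0.195 and 0.171 in samples 1 to 6. Those in pete2 were 0.226, 0.228, 0.181, 0.225, 0.227 and 0.243. Of the pete2 samples 5 lay above the highest WT sample, and pete2 sample 3 lay inside the WT range, so the groups overlapped in that sample. Over all tested probes, 0.994% had deposited groups that did not overlap with pete2 higher, and CCS was not among them.

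WT samples had a mean deposited intensity of 0.180 ± 0.0128 (SD, n = 6), and pete2 samples one of 0.221 ± 0.0208 (SD, n = 6). On the log2 scale the deposited difference was 0.30, which is 1.23-fold higher in pete2. A two-sided exact permutation test of CCS alone over the 12 samples gave p = 0.00866, and pete2 was higher in 5 of the 6 same-numbered comparisons. When consecutive samples (1 with 2, 3 with 4, 5 with 6) were averaged within groups, exact permutation gave p = 0.10, the smallest that this number of averages allows. Same-number differences tested by exact sign changes gave p = 0.0625, where 0.0312 is the smallest possible. In RNA from whole samples, a different number of cells that express CCS and a different amount of CCS RNA per cell cannot be told apart.

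**Figure D1:**
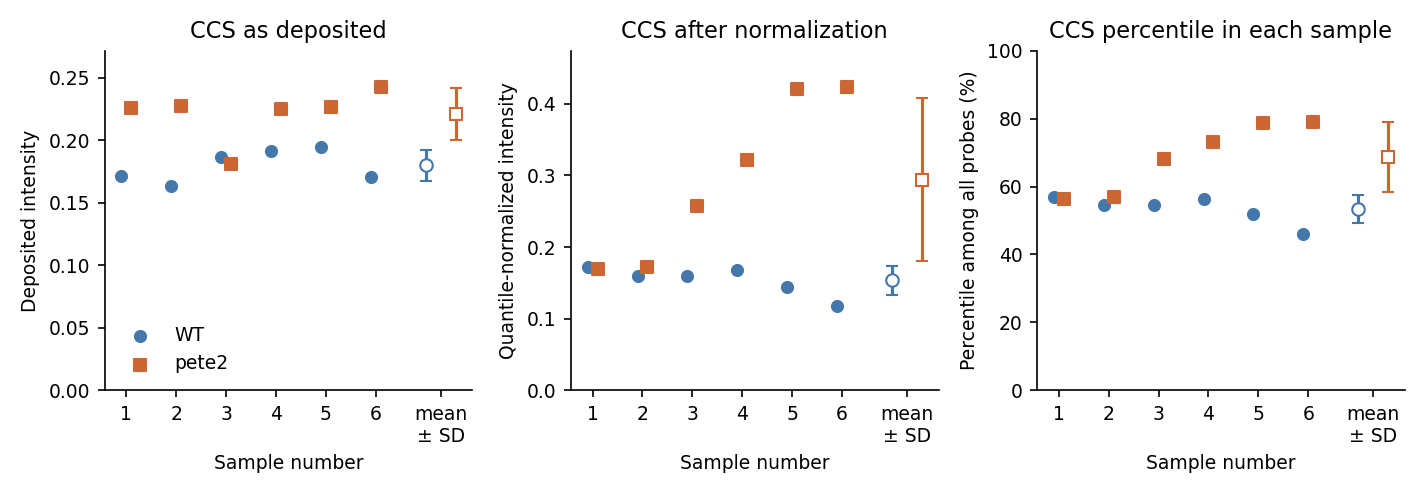
CCS in each sample as deposited intensity (left), quantile-normalized intensity (middle) and percentile among all probes of the sample (right, %). Filled circles are WT and filled squares pete2, by sample number, and open symbols with bars are group means with SD (n = 6). As deposited, 5 of the 6 pete2 samples lie above every WT sample. After normalization pete2 samples 1 and 2 lie within the WT range and samples 3 to 6 lie above it.

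CCS was among the steadiest probes of the table as deposited. Its SD within groups was 0.125 on the log2 scale of the deposited intensities, against a median of 0.737 over the 1740 probes above 0 in all samples. Only 3 of those probes had a smaller SD. Of these, probes 3499 and 811 had mean intensities of 99.7 and 96.2, near the top of the deposited scale. Both reached a highest deposited value of 100, from lowest values of 96.4 and 82.1. The third, probe 2793, had a mean deposited intensity of 1.87 and lists several genes. These 3 probes were looked up after their values were seen. Since probes 3499 and 811 both reached 100, the deposited intensities may already be scaled within samples or capped, which was not tested. "Without scaling" below means that no further scaling was applied. After normalization the SD of CCS within groups was 0.445, and 24.0% of the same probes had a smaller one.

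Quantile normalization, which gives all samples the same distribution of intensities, changed where the CCS difference lay. The normalized intensity in WT samples 1 to 6 was 0.173, 0.160, 0.159, 0.168, 0.144 and 0.117. In pete2 it was 0.169, 0.172, 0.257, 0.321, 0.420 and 0.423. Samples 3 to 6 of pete2 lay above every WT sample, and samples 1 and 2 of pete2 lay within the WT range. The groups thus overlapped again, but in other samples than as deposited, and 3.31% of the tested probes had normalized groups that did not overlap with pete2 higher.

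The normalized mean of CCS was 0.154 ± 0.0204 (SD, n = 6) for WT samples and 0.294 ± 0.114 (SD, n = 6) for pete2 samples. The fit of limma across 3321 probes gave a normalized log2 difference of 0.85 ± 0.29 (SE), a 1.80-fold higher level in pete2 with a 95% interval of 1.17-fold to 2.79-fold. The unadjusted p was 0.0121 and the Benjamini-Hochberg adjusted p was 0.0797, so CCS did not pass the threshold of 0.05. In that fit 11.2% of the tested probes passed, 4.91% as higher in pete2 and 6.29% as lower, which are 163 and 209 probes. Without scaling the calls were 60 higher and 385 lower. The normalized log2 difference of CCS was exceeded by 667 of the 3321 tested probes (20.1%), of which 143 passed the test, and 503 probes had a smaller unadjusted p.

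For CCS alone, the exact permutation test on normalized values gave p = 0.00649 (two-sided, higher in pete2 in 5 of 6 same-numbered comparisons), without any adjustment over the probes. It was 0.10 with consecutive samples averaged, again the smallest possible, and 0.0625 by exact sign changes of the same-number differences. This test uses only the spread of CCS. The limma fit draws the spread of each probe towards that of other probes, and used an SD of 0.502 for CCS on the normalized log2 scale. On the deposited scale it used 0.375, against the SD of 0.125 measured for CCS, and there the adjusted p was 0.361 (limma, log2 difference 0.30 with a 95% interval of -0.17 to 0.77).

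The position of CCS within each sample does not depend on scaling between samples. Ranked from the brightest of 3439 probes, CCS was in place 1479, 1560, 1562, 1506, 1655 and 1858 in WT samples 1 to 6. In pete2 it was in place 1501, 1482, 1098, 922, 728 and 723. CCS therefore ranked near the middle of the probes in WT and in pete2 samples 1 and 2, and higher in pete2 samples 3 to 6. Its deposited intensity was 0.226 and 0.228 in pete2 samples 1 and 2, and 0.181 to 0.243 in samples 3 to 6. The rank also depends on the other probes, whose median was lower in pete2 samples 3 to 6 than in any WT sample. A place on the array is a probe's brightness relative to the other probes of the sample. It is not an amount of transcript relative to other genes.

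As a percentile, with 100 as the brightest probe, CCS stood at 53.4 ± 4.03 (SD, n = 6) in WT and at 68.7 ± 10.2 (SD, n = 6) in pete2. The difference was 15.3 percentile points (two-sided exact permutation p = 0.00649). Over the deposited, normalized and percentile measures, the Benjamini-Hochberg value was 0.00866 for each of the 3. The normalized and percentile measures both come from the rank of CCS within a sample, so they are not separate results. This adjustment covers neither the other probes nor the choice of the gene with earlier results known. A larger percentile difference was found for 295 of the tested probes (8.88%), and 3.73% had percentile groups that did not overlap with pete2 higher. With consecutive samples averaged the exact permutation p was 0.10, and sign changes of the same-number differences gave an exact p of 0.0625. Without samples 5 and 6 of both groups the difference was 8.03 points (exact permutation p = 0.0857).

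Taken by sample number, the CCS difference and the shift of the whole array went apart. The deposited log2 difference of pete2 from WT in CCS was 0.39, 0.47, -0.04, 0.23, 0.22 and 0.51 for sample numbers 1 to 6. Over all tested probes the median deposited log2 difference for the same numbers was 0.16, 0.12, -0.53, -0.58, -1.21 and -1.26. The deposited CCS difference thus stayed between -0.04 and 0.51, while most other probes were lower in pete2 samples 3 to 6 than in their WT counterparts.

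After quantile normalization the log2 difference of CCS was -0.03 and 0.11 for numbers 1 and 2, 0.69 and 0.93 for numbers 3 and 4, and 1.54 and 1.85 for numbers 5 and 6. Scaling each sample by its median instead gave 0.07, 0.18, 0.59, 0.87, 1.42 and 1.79 in the same order. In places, CCS stood 22 places lower in pete2 sample 1 than in WT sample 1, and 78, 464, 584, 927 and 1135 places higher for numbers 2 to 6. The normalized difference was therefore near 0 where the pete2 arrays had zeros and medians like those of WT. It was larger for numbers 5 and 6, where 30.7% and 28.6% of the pete2 probes were at 0. The part of the array-wide shift in the normalized difference was not tested.

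**Figure D2:**
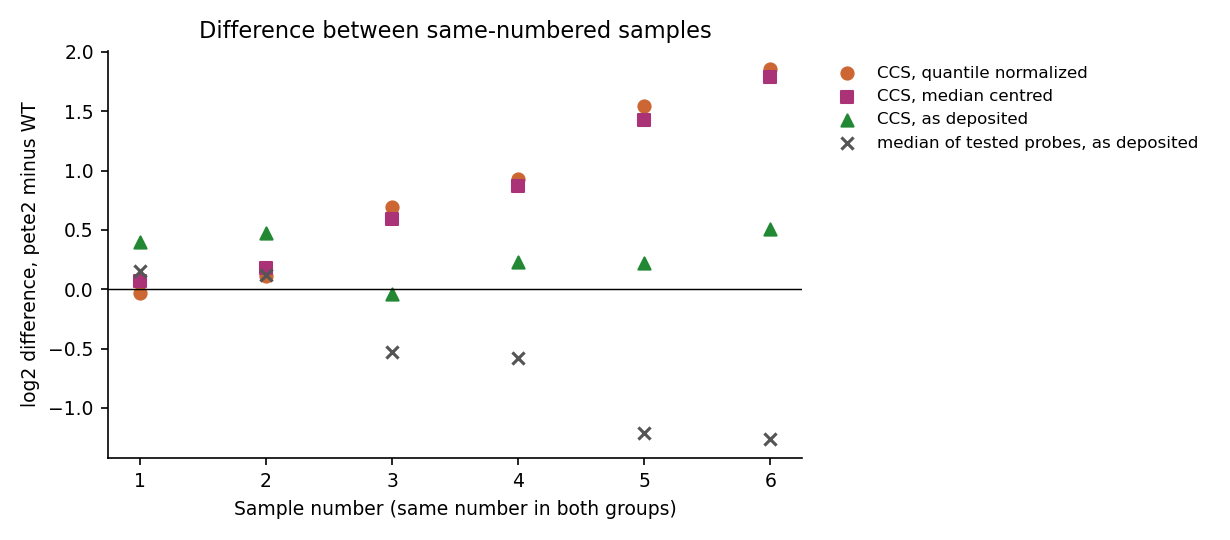
The log2 difference of pete2 from WT (vertical axis) between samples of the same number (horizontal axis). Circles are CCS after quantile normalization, squares CCS after median centring, triangles CCS as deposited, and crosses the median of all tested probes as deposited. The deposited CCS difference lies between -0.04 and 0.51, while the median of all probes goes down to -1.26 and the normalized CCS difference goes up to 1.85.

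Over the consecutive samples, whose relation the labels do not explain, the values were as follows. For samples 1 and 2 the mean log2 difference of CCS was 0.43 as deposited and 0.04 after normalization. For samples 3 and 4 it was 0.09 and 0.81, and for samples 5 and 6 it was 0.36 and 1.70. The deposited difference was positive in each of these sets, and the sets came in another order by deposited than by normalized difference. Without samples 5 and 6 of both groups the normalized log2 difference was 0.42 (limma, adjusted p = 0.364), and without samples 5 and 6 of pete2 alone it was 0.53 (limma, adjusted p = 0.221).

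Against the array as a whole, CCS lay above the middle of the distribution on both scales. Its deposited log2 difference of 0.30 stood beside a median of -0.63 over the tested probes, a gap of 0.93, and 22.5% of the tested probes had a larger one. Its normalized log2 difference of 0.85 stood beside a median of -0.01.

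**Figure D3:**
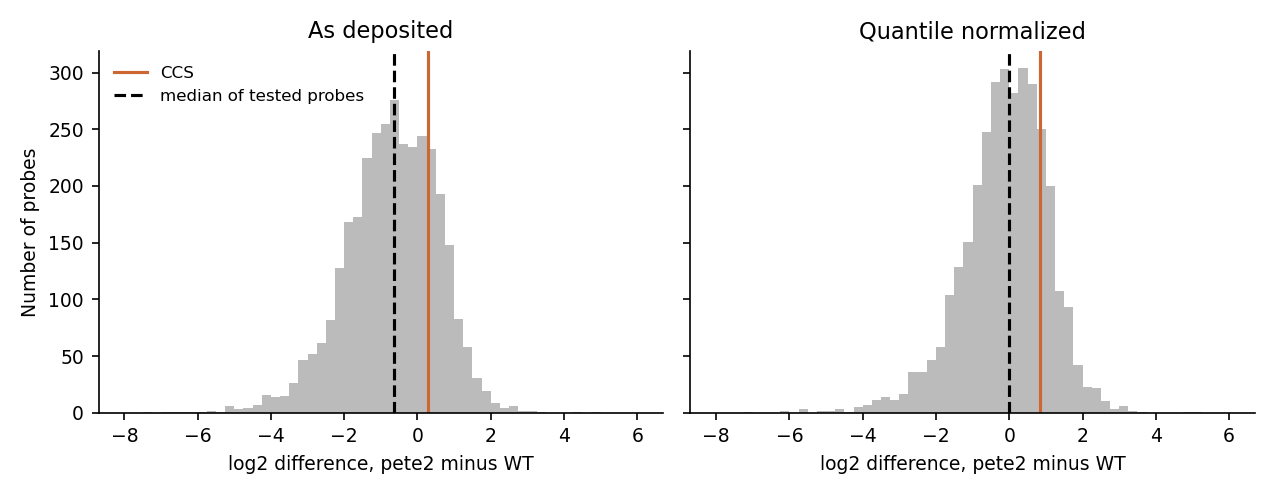
Distribution of the log2 difference of pete2 from WT over the 3321 tested probes, as deposited (left) and after quantile normalization (right), with the number of probes on the vertical axis. The solid line marks CCS, at 0.30 and 0.85, and the dashed line the median of all tested probes, at -0.63 and -0.01.

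The call for CCS depended on the settings of the fit, and its log2 difference was positive in the 26 alternatives run. Those that changed only the floor, filter, trend, blocks, averaging or test kept 0.85, so they could not show another direction. The interval of limma included 0 without scaling, with consecutive samples averaged, and with samples 5 and 6 left out of both groups or of pete2 alone. The adjusted p fell to 0.0448 when only probes above 0 in all samples were tested (limma, log2 difference 0.85) and to 0.0497 with array weights (limma, 0.76). It was 0.038 without pete2 sample 1 and 0.0423 without pete2 sample 2, the samples in which normalized CCS lay within the WT range (limma, log2 differences of 1.01 and 0.999). With consecutive samples averaged it was 0.440, and with those samples as a random block 0.185 (limma, log2 difference 0.85 in both).

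**Figure D4:**
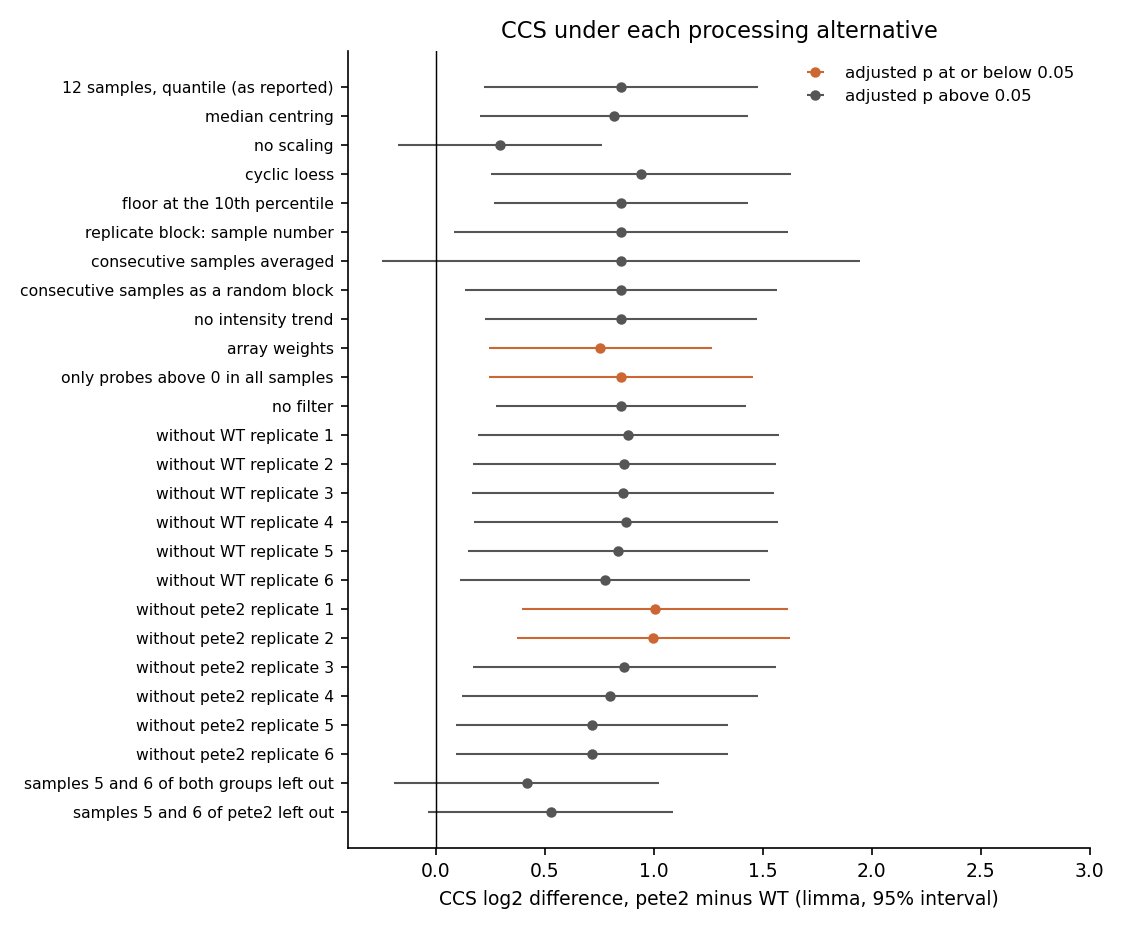
The log2 difference of CCS, pete2 minus WT, under each processing alternative (points, with the 95% interval of limma as bars). Points in orange pass an adjusted p of 0.05 and those in grey do not. All points lie above 0, from 0.30 without scaling to 1.01 without pete2 replicate 1. Bars reach below 0 without scaling, with consecutive samples averaged, and with samples 5 and 6 left out of both groups or of pete2 alone.

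CCS stood almost alone for the copper pathway on this array. Of 29 genes of copper uptake, transport and chaperoning, 2 had a probe of their own, CCS and CUTA, and neither passed the test, which 11.2% of all tested probes passed. The 5 copper regulators, SPL7 and the genes of miR398 among them, and the 7 superoxide dismutases, with the CCS clients CSD1 and CSD2, had none. Of 34 copper enzymes and other copper proteins, which include both plastocyanin genes PETE1 and PETE2, 0 had a probe of their own and 2 were listed on a probe with other genes. The mutated gene could therefore not be checked against the labels, and the dismutases that CCS serves could not be set beside it. None of the 10 markers of other tissues and of senescence had a probe of its own, so the make-up of the samples was not examined.

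CUTA (AT2G33740) encodes a plant member of the family of the bacterial copper tolerance protein CutA. Its normalized intensity in WT samples 1 to 6 was 0.098, 0.153, 0.548, 1.49, 0.101 and 0.165, and in pete2 it was 0.521, 0.386, 0.661, 0.781, 0.307 and 0.213. WT samples 3 and 4 lay within or above the pete2 range, so the groups overlapped widely. Its normalized log2 difference was 0.84 ± 0.642 (SE), close to that of CCS but with a larger error than the 0.29 of CCS (limma, adjusted p = 0.432).

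Of 29 enzymes of hydrogen peroxide removal and the ascorbate-glutathione cycle, which act on the product of superoxide dismutases, 2 had a probe of their own. NTRC, the plastid NADPH-dependent thioredoxin reductase, had normalized intensities of 0.113 ± 0.0392 (WT) and 0.116 ± 0.0925 (pete2, SD over 6 samples each) and a log2 difference of -0.34 (limma, adjusted p = 0.729). AT3G52960 had a log2 difference of -1.17 (limma, adjusted p = 0.317) and was listed at 0 in 2 pete2 samples. Neither passed the test, against 11.2% of all tested probes, and their median log2 difference was -0.75, against -0.01 over all tested probes.

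Of 22 genes that act next to plastocyanin in electron transport, PSAN alone had a probe of its own. PSAN encodes a subunit of photosystem I on the lumenal side, where plastocyanin docks. As deposited it was 4.19, 4.10, 4.41, 4.84, 3.04 and 3.29 in WT and 6.06, 6.15, 12.1, 13.8, 14.4 and 14.6 in pete2, in sample order. Every pete2 sample was above every WT sample, as for 0.994% of the tested probes, while deposited CCS overlapped in pete2 sample 3. PSAN rose by a normalized log2 difference of 1.33 ± 0.172 (SE, limma, adjusted p = 0.00034). Of the 136 genes of these lists, 5 had a probe of their own. Among these 5 genes, 1 rose and 0 fell, against 4.91% and 6.29% of all tested probes. Their median log2 difference was 0.84, against -0.01 over all tested probes. The 5 genes include CCS itself, and this median is the value of CUTA, which did not pass the test. The lists were also written with earlier results of these data known, so nothing is read from this median about them.

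The genes most like CCS were sought among probes with a single gene that were above 0 in all samples. Likeness was the root mean square difference of log2 normalized intensity over the 12 samples, after each gene's own mean was removed. In order of distance they were AT1G54500 (0.260), HEMA3 (0.268), AT3G15140 (0.280), PSBY (0.281), AT1G04420 (0.312) and AT3G47650 (0.334), against a median of 0.922 over the 334 candidates. HEMA3 encodes a glutamyl-tRNA reductase, the enzyme that opens tetrapyrrole synthesis, and PSBY a small protein of photosystem II.

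By the way they were chosen, these genes follow the normalized levels of CCS, and they are described here without a test of that. The normalized intensity of AT1G54500 was 0.350 to 0.422 in WT, 0.364 and 0.385 in pete2 samples 1 and 2, and 0.962 to 1.09 in pete2 samples 3 to 6. As for CCS, pete2 samples 1 and 2 lay inside the WT range. HEMA3 and PSBY differed from CCS in that all their normalized pete2 samples lay above the WT samples, as for 3.31% of all tested probes. For HEMA3 the ranges were 0.466 to 0.756 in pete2 and 0.204 to 0.406 in WT. For PSBY they were 3.04 to 6.68 and 2.08 to 2.98. As deposited both genes overlapped. HEMA3 was 0.498 in WT sample 3 and 0.433 in pete2 sample 3, and PSBY was 2.82 in WT sample 5 and 2.76 in pete2 sample 1. HEMA3 and PSBY passed the test (limma, normalized log2 differences of 1.01 and 0.91, adjusted p = 0.011 and 0.0126), and the other 4 did not. Since the 6 genes were chosen for following CCS over the same samples, nothing is read from that count beside the 4.91% of all tested probes that passed as higher.

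On the deposited scale the nearest genes were mostly others. Of the 6 genes, 2 were also among the 6 nearest on deposited values, HEMA3 and AT1G04420, and 5 were among the 6 nearest after cyclic loess. Dividing each sample by a constant cannot change this measure, so median centring gave the same 6 as the deposited values. All the profiles come from the same 12 arrays and share their zeros and array-wide shifts.

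**Figure D5:**
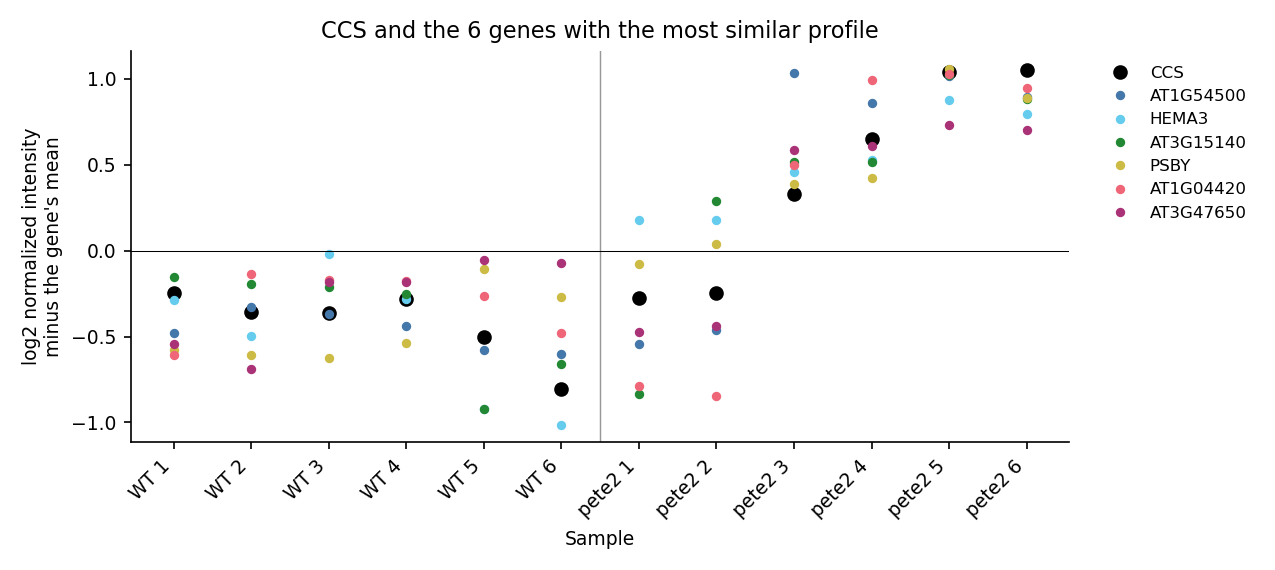
Log2 normalized intensity of CCS (large black points) and of the 6 genes with the most similar profile, each minus its own mean, in the 12 samples. The WT samples are left of the grey line and the pete2 samples right of it. CCS, AT1G54500 and AT3G47650 lie within their WT ranges in pete2 samples 1 and 2, and AT1G04420 lies below its own there. All 7 genes lie highest in pete2 samples 3 to 6.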

How the data were processed

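The deposited table gives 1 linear intensity per probe and sample for 12 samples. How the authors scanned, background-corrected and scaled these intensities is stated in no source used here. The platform's table named a single gene for 692 probes (690 matched to RefSeq, assembly TAIR10.1) and several for 870, and 1877 were not listed. Intensities were quantile normalized. A floor at the 1st percentile of positive normalized intensities (0.0056) replaced lower values and those deposited as 0, before log2. Leaving out 118 probes without a value above 0 left 3321.

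The main comparison used limma 3.58.1 (R 4.3.3; lmFit, then eBayes with trend), adjusted by Benjamini-Hochberg over all tested probes, threshold 0.05. CCS alone was also compared with exact permutation tests over samples in Python 3.11.15. The calculation was tested on simulated data. Named were CCS, the measured members of the gene lists and the 6 genes most like CCS. The gene and lists were chosen with earlier results of these data known. The alternatives covered scaling, floor, filter, weights, blocks and left-out samples. No 2 samples held the same values. The number of arrays limits the precision.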

Additional observations from a re-analysis of the deposited data

Results flagged for a closer look

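Among 26 groups of 6 samples examined for a sample far from the others, 4 had one. Chance gives about 1 in 20 groups. The gap to the nearest sample, as a share of the group's range, was set against Dixon's 95% critical value for 6 samples. For deposited CCS in pete2 the share was 0.708, since sample 3 (0.181) lay below the other 5 samples (0.225 to 0.243). For normalized CUTA in WT it was 0.676, with sample 4 at 1.49. For normalized NTRC in pete2 it was 0.631, with sample 6 at 0.282. For normalized AT3G52960 in WT it was 0.767, with sample 5 at 0.101. Without pete2 sample 3 the deposited log2 difference of CCS was 0.35 (exact permutation p = 0.00216). Sample 3 was the only pete2 sample inside the WT range, so the groups had to separate once it was left out. That p was then the smallest possible, and nothing is read from it.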

How the results depend on the processing

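The log2 difference of CCS was positive in all 26 alternatives, from 0.30 without scaling to 1.01 without pete2 sample 1. Those that changed only the floor, filter, trend, blocks, averaging or test kept 0.85, so they could not show another direction. The interval of limma included 0 without scaling (from -0.17) and with consecutive samples averaged (from -0.25). It also did so without samples 5 and 6 of both groups (from -0.19) or of pete2 alone (from -0.03). Of the 26 alternatives, 5 passed the threshold that the reported value missed. Passing were array weights (0.76, limma adjusted p = 0.0497) and testing only probes above 0 in all samples (0.85, limma adjusted p = 0.0448). Leaving out pete2 sample 1 or 2 also passed, as did the exact permutation test of CCS alone (0.85, p = 0.00649). That test has no adjustment over probes and was added after seeing the data. Leaving out each sample gave 0.72 to 1.01 (limma adjusted p = 0.038 to 0.146). Over all adjusted fits of limma the range was 0.038 to 0.440. The 372 calls over all probes became 11 with consecutive samples averaged and 168 with them as a random block (estimated correlation 0.525), and 287 to 423 when each sample was left out. The percentile difference kept its call in 15 of 18 alternatives (13.3 to 17.8 points when each sample was left out). It lost it with consecutive samples averaged (15.3, exact permutation p = 0.10, the smallest possible there, so that no call could be made), with sign changes of the same-number differences as a replicate block (15.3, exact p = 0.0625) and without samples 5 and 6 of both groups (8.03, exact permutation p = 0.0857). The deposited log2 difference, tested after seeing the data, lost its call in the same 3 settings, the first again unable to make one (0.30, 0.30 and 0.26, exact permutation p = 0.10, 0.0625 and 0.0857) and was 0.27 to 0.35 when each sample was left out. The 2 groups share sample numbers, but same-numbered samples deviated together with r of 0.0198 to 0.283 over probes, and the labels give no pairing, so the numbers were not taken as pairs. Samples 3 to 6 of WT correlated best with their own number in pete2, and samples 1 and 2 with other numbers. With sample number as a block the log2 difference of CCS was 0.85 (limma adjusted p = 0.154), with 324 calls over all probes. The causes of these changes were not tested. Without a stated background level, no detection limit for CCS could be set.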
